A study of Mus musculus with 4 samples.

Results

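Adipokines are proteins that fat cells release into the blood or to neighbouring cells, and 10 of them were examined in mouse brown adipocytes with and without knockdown of the long noncoding RNA Blnc1 (brown fat lncRNA 1). The genes were taken by name, with every probe set that the platform annotation pairs with exactly 1 symbol: Lep, Adipoq, Retn, Cfd, Rbp4, Nampt, Apln, Fgf21, Nrg4 and Bmp8b. The annotation used here named 9 such probe sets for 8 of these genes, out of 17097 genes in all. Bmp8b had 2 probe sets and the other measured members 1 each. Cfd and Nampt had none, and their levels were not analysed here. The scramble group (2 arrays) expressed a scrambled control shRNA and the knockdown group (2 arrays) an shRNA to Blnc1, and both had been differentiated for 6 days before harvest. Both groups thus carried an shRNA and differed in its target. Replicates are labelled as biological, but whether they came from separate cultures or animals is unstated, so p-values measure the spread between these samples. No probe set is named Blnc1 here, so the depletion itself could not be checked, and the hairpin sequence, the vector and the origin of the cells are not stated.

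Leptin (Lep) tells the brain how much fat is stored, and is known as a product of white rather than brown fat cells. Adiponectin (Adipoq) circulates as multimers and raises insulin sensitivity, resistin (Retn) opposes insulin action in mice, and Rbp4 carries retinol in blood. Brown fat is known to release factors of its own, among them Fgf21, which acts through beta-klotho, the growth factor Nrg4, and the bone morphogenetic protein Bmp8b. Apelin (Apln) is a peptide ligand of the receptor Aplnr. Many fat cell promoters are bound by C/EBP factors and by PPAR gamma.

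Promoter windows are shown for the members that passed the test, Lep and Bmp8b, and for Fgf21, which lay nearest to it. They are the RefSeq windows of build GRCm38.p6, from 250 bases before to 50 after the start, with every match to the searched motifs in capitals. The motifs were TTGCNNAA (a C/EBP-type site), CACGTG (an E-box), TATAAA and the PPAR direct repeat, searched on both strands. The Lep window lies at chr6:29059971-29060270 on the plus strand, that of Fgf21 at chr7:45615441-45615740 on the minus strand and that of Bmp8b at chr4:123104911-123105210 on the plus strand.
Lep: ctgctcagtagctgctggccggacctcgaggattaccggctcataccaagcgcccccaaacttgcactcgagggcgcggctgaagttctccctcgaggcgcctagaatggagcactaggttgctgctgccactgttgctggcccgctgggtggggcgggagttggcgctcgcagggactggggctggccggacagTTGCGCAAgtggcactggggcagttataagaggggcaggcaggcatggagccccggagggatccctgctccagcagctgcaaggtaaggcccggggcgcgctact
Fgf21: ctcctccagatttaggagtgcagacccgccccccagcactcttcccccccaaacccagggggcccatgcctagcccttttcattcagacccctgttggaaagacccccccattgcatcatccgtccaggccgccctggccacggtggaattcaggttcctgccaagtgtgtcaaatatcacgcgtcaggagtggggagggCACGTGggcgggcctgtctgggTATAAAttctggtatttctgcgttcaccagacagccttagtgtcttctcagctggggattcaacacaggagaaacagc
Bmp8b: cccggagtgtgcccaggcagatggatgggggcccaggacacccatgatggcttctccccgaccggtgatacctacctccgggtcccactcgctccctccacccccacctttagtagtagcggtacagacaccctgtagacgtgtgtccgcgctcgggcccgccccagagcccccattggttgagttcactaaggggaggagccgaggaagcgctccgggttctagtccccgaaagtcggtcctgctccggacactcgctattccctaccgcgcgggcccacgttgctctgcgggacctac
The match in Lep, TTGCGCAA, reads the same on both strands and spans bases 55 to 48 before the start. Fgf21 held CACGTG at 50 to 45 and TATAAA at 28 to 23 bases before the start, and the motifs did not overlap. Bmp8b held no match to the searched motifs. All 10 members had a window, and TTGCNNAA was found in those of 3 (Lep, Rbp4 and Nrg4), against 10.8% of all 32851 windows. CACGTG was found in 1 member (7.15% of all windows), TATAAA in 2, Rbp4 and Fgf21 (13.6%), and the PPAR direct repeat in none (0.149%). A match is a description of the sequence, not a measured binding site.

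The cells carried the transcripts that define brown fat. Ucp1 read 7.51 and 7.73 (log2) in scramble and 5.53 and 5.98 in knockdown, above the background of 2.55 on every array. Of 9 measured brown adipocyte markers, 6 were lower in knockdown and 1, the fatty acid elongase gene Elovl3, was 2.10-fold higher (adjusted p = 0.00169). Dio2, the deiodinase that activates thyroid hormone, was among the lower ones and read 2.56 and 2.34 in knockdown, above background on 1 of 2 arrays. Background is the top value that any of the 22 antigenomic control probe sets, which have no match in the mouse genome, reached on any array. Replicates correlated at r = 0.994 in scramble and 0.996 in knockdown, and arrays of different groups at 0.982 to 0.984, across probe sets, which are not independent. For Actb, the 3' minus the 5' control probe set, a log2 difference that is higher where RNA is more broken, was 0.99 and 1.15 in scramble and 1.77 and 1.88 in knockdown. Summed on the linear scale, the brown adipocyte markers came to 2887 to 3069 in scramble and 1466 to 1574 in knockdown, and the 8 measured markers of fat cells of any type to 15142 to 15312 and 15669 to 15869. All 6 measured preadipocyte or fibroblast markers were higher in knockdown, with sums of 141 to 164 and 257 to 279. On every array, 4 of 7 macrophage, 3 of 6 endothelial and 1 of 5 muscle markers were at background. The macrophage marker Adgre1 was 1.62-fold higher in knockdown (adjusted p = 0.0133) and the endothelial marker Tek 1.59-fold higher (adjusted p = 0.0106). The muscle marker Myod1 was lower (adjusted p = 0.0267), with no knockdown array above background. No other marker of these 3 cell types was called. The part of RNA quality and of these marker shifts in the results on the adipokines was not tested, and in bulk RNA, fewer cells of a type and less RNA per cell cannot be told apart.

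Blnc1 knockdown went with more leptin mRNA. Bmp8b mRNA was slightly lower on its brighter probe set, close to background, while the groups overlapped on its dimmer probe set. The other 6 measured adipokines did not pass the test. A gene is called here when limma's adjusted p, over all 17097 genes, is under 0.05. Of the 8 measured members 2 were called, 1 higher (Lep) and 1 lower (Bmp8b). Among all genes 3169 were called, a share of 18.5%, with 11.4% higher and 7.18% lower. A count of 2 in 8 is thus near that share. Of all 17097 genes 4210 had both groups at background, against 0 of the members, so the 2 sets are unlike in level. The split over all genes depended on the scaling, with 1941 higher and 1228 lower here, 1514 and 1564 after quantile normalization, and 2383 and 844 with array medians made equal. After that centring 3 members were called, Lep and Fgf21 higher and Bmp8b lower. The groups did not overlap for 6 of the 8 members, against 62.6% of all genes. The median log2 fold change was 0.18 over the 8 members and -0.04 over all genes, and the members ranged from -0.43 to 1.66.

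**Figure D1:**
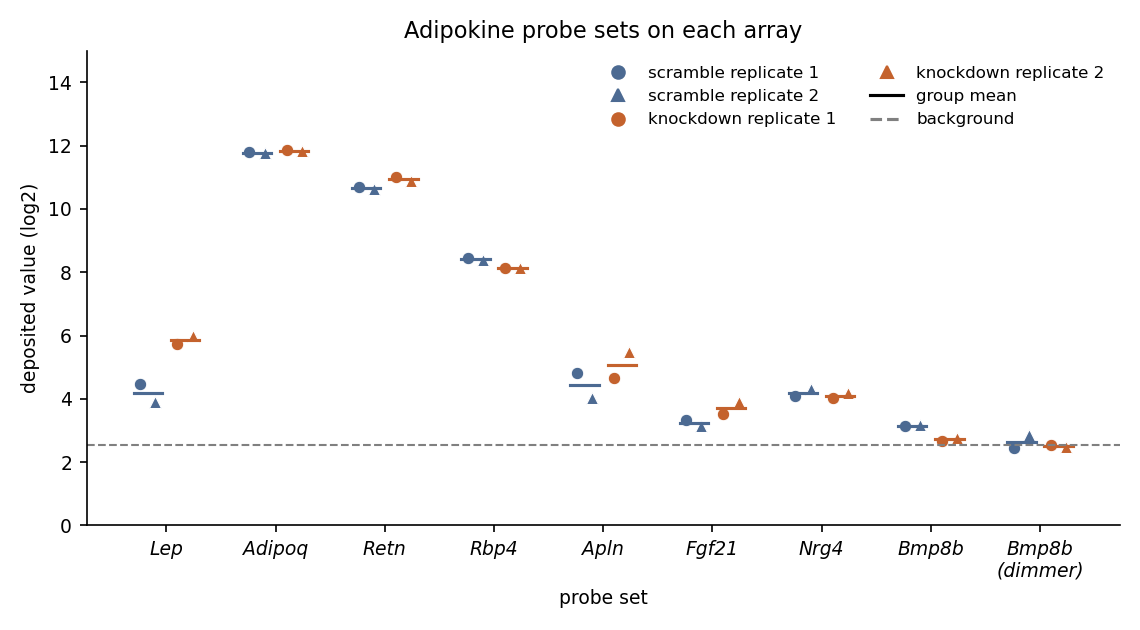
Deposited log2 values of the 9 adipokine probe sets (x axis) on each of the 4 arrays, with scramble in blue and knockdown in orange, circles for replicate 1, triangles for replicate 2, short lines for group means and a dashed line at the background of 2.55. Both knockdown arrays lie above both scramble arrays for Lep, by the widest gap of any probe set shown, whereas the Apln arrays of the groups overlap. Heights of different probe sets are not comparable.

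Leptin showed the clearest difference among the members. Its probe set (Lep, Entrez Gene 16846) read 4.48 and 3.89 in scramble and 5.73 and 5.97 in knockdown. Both knockdown arrays lay above both scramble arrays, by more than the gap of 0.59 between the scramble arrays. The means were 4.19 ± 0.42 and 5.85 ± 0.17 (log2, SD, n = 2 each), a log2 fold change of 1.66 with a standard error of 0.20 and a limma adjusted p of 0.00261. That is 3.17-fold, with a 95% interval of 2.29 to 4.37-fold. Among all genes, 57 had a larger rise. The gene was called under all 11 alternative settings that give it a value, with log2 fold changes from 1.37 to 1.96.

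Adiponectin (Adipoq, Entrez Gene 11450) read 11.81 and 11.75 in scramble and 11.86 and 11.83 in knockdown. The groups did not overlap, but they lay within about 0.1 log2 units of each other. The highest deposited value of any probe set was 12.36. The log2 fold change was 0.07 (95% interval -0.17 to 0.30, adjusted p = 0.682). Resistin (Retn, Entrez Gene 57264) read 10.68 and 10.63 in scramble and 11.02 and 10.88 in knockdown. Its knockdown arrays were both higher, but the log2 fold change of 0.30 (95% interval 0.05 to 0.54, adjusted p = 0.0981) did not pass. In eBayes with an intensity trend the adjusted p was 0.000561, and Retn was then called.

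The retinol carrier gene Rbp4 (Entrez Gene 19662) read 8.44 and 8.38 in scramble and 8.13 on both knockdown arrays. Both knockdown arrays were lower, by a log2 fold change of -0.28 (95% interval -0.51 to -0.04) that did not pass (adjusted p = 0.0972, or 0.007 with the trend). Liver also makes Rbp4, and hepatocyte markers moved with the groups: of 17 measured, 9 were lower and 1, Trf, was higher in knockdown. Their summed linear level was 2211 to 2341 in scramble and 2041 to 2223 in knockdown, most of it from Hp, which fat cells also make. Of the hepatocyte markers Fgb, Serpina1a and Tat were at background on every array, and Alb read 6.28 and 5.70 in scramble and 4.43 and 2.50 in knockdown. Their part in the value of Rbp4 was not tested.

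Apelin (Apln, Entrez Gene 30878) read 4.83 and 4.01 in scramble and 4.65 and 5.47 in knockdown. The groups overlapped, since knockdown replicate 1 lay below scramble replicate 1, and replicates differed by 0.81 and 0.82. The log2 fold change of 0.64 had a standard error of 0.33, a 95% interval of -0.13 to 1.41 and an adjusted p of 0.214. It was 0.23 without knockdown replicate 2 and 0.24 without scramble replicate 2, and 1.05 without replicate 1 of one group or the other, so the value rests on single arrays.

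Among the factors that brown fat releases, Fgf21 (Entrez Gene 56636) read 3.33 and 3.13 in scramble and 3.52 and 3.90 in knockdown. Both knockdown arrays were higher, by a log2 fold change of 0.49 (standard error 0.15, 95% interval 0.13 to 0.84) that did not pass (adjusted p = 0.0672). It passed after median centring (0.0465) and with the dimmest 40 percent of genes left out (0.0468). Without knockdown replicate 2 the log2 fold change was 0.30. Liver is a main source of circulating Fgf21, and 9 of the 17 hepatocyte markers were lower where Fgf21 read higher; their part was not tested.

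Nrg4 (Entrez Gene 83961) read 4.08 and 4.30 in scramble and 4.02 and 4.17 in knockdown. The groups overlapped, and the log2 fold change was -0.10 (95% interval -0.38 to 0.19, adjusted p = 0.614). Its sign turned without scramble replicate 2, to 0.0090. Bmp8b (Entrez Gene 12164) read 3.13 and 3.17 in scramble and 2.68 and 2.77 in knockdown on its brighter probe set. Both knockdown arrays were lower and close to the background of 2.55, with means of 3.15 ± 0.03 and 2.72 ± 0.06 (log2, SD, n = 2 each). The log2 fold change was -0.43 (standard error 0.10) with a limma adjusted p of 0.029, a 1.34-fold lower level.

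The call of Bmp8b did not hold when any 1 array was left out: the adjusted p was 0.0525 and 0.0649 without scramble replicates 1 and 2, and 0.178 and 0.12 without knockdown replicates 1 and 2. Its dimmer probe set read 2.43 and 2.86 in scramble and 2.53 and 2.48 in knockdown, above background on 1 array. There the groups overlapped, and over all probe sets its log2 fold change of -0.14 had an adjusted p of 0.576. Averaging both probe sets gave the gene an adjusted p of 0.109. Adjusted over all 45037 probe sets, of which 14.1% were called, 2 of the 9 member probe sets were called, that of Lep (0.00335) and the brighter one of Bmp8b (0.0349).

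**Figure D2:**
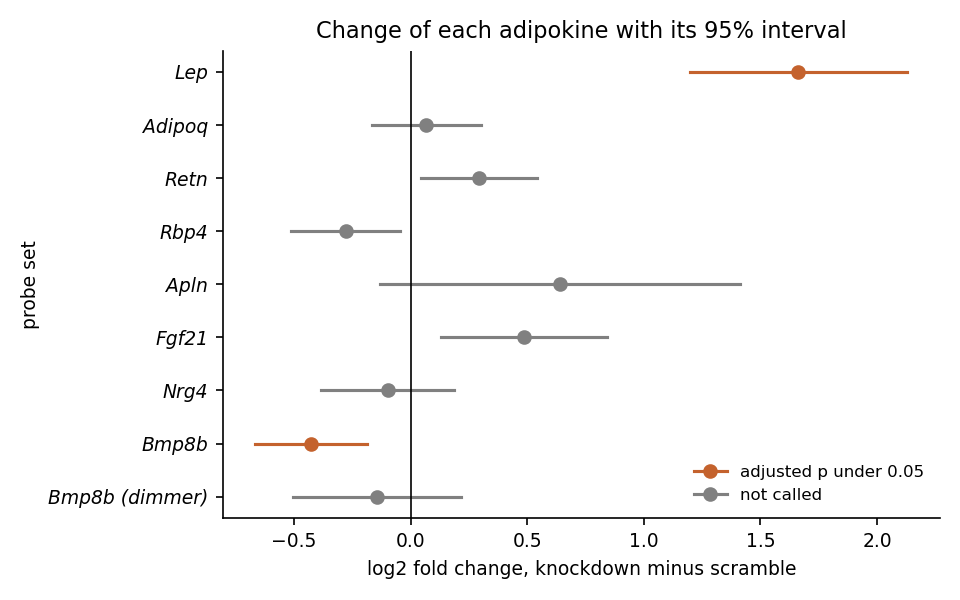
Log2 fold change of each adipokine probe set (knockdown minus scramble, x axis) with its 95% interval from limma (bars), in orange where the adjusted p is under 0.05 and in grey where it is not. The interval of Lep runs from 1.20 to 2.13, that of the brighter Bmp8b probe set from -0.67 to -0.19, and that of Apln is the widest, from -0.13 to 1.41.

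**Figure D3:**
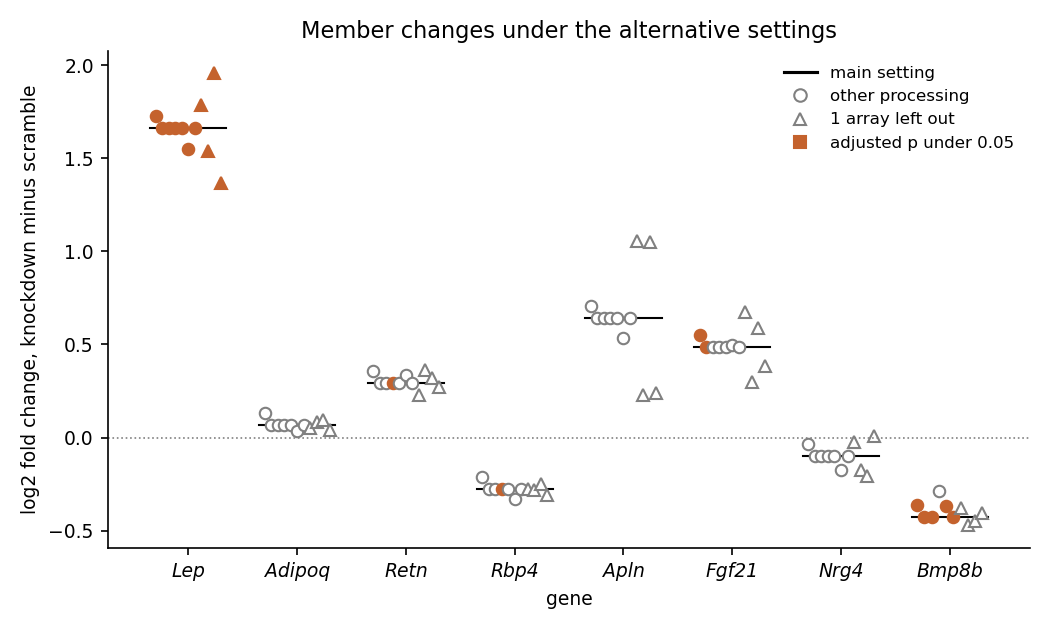
Log2 fold change (y axis) of the 8 measured members under each alternative setting, with circles for other processing, triangles for 1 array left out, orange fill where the adjusted p is under 0.05 and a black line at the reported value. Lep stays between 1.37 and 1.96 and filled throughout, and every triangle of Bmp8b is open.

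Beyond the members, 46 further secreted factors of fat were listed, of which 38 were measured: 7 rose, 4 fell and 27 did not pass (28.9% called, against 18.5% of all genes), with a median log2 fold change of -0.09. Slit2, whose cleaved fragment is secreted by brown and beige fat, read 4.69 and 4.78 in scramble and 6.92 and 6.97 in knockdown, which is 4.62-fold higher (adjusted p = 0.000238). A second Slit2 probe set was at background on every array. Angptl4, a secreted inhibitor of lipoprotein lipase, read 9.56 and 9.55 in scramble and 7.75 and 7.51 in knockdown. That is 3.81-fold lower (adjusted p = 0.000338), though this probe set may also pick up other transcripts. A second Angptl4 probe set, not of that type, read 2.54 and 2.93 in scramble and 1.98 and 2.14 in knockdown. Its log2 fold change was -0.68, at levels near or below background. On the brighter probe set of each gene, the groups stood apart by far more than the replicates differed.

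Fstl1, a secreted glycoprotein, was 2.29-fold higher (adjusted p = 0.000939), and the insulin-like growth factor gene Igf1 was 1.66-fold higher (adjusted p = 0.00552; 0.0506 without knockdown replicate 2). Of the other 3 probe sets of Igf1, the log2 differences were 0.80, 0.78 and 0.16. The angiogenic factor gene Vegfa was 1.63-fold lower (adjusted p = 0.00524). Its log2 fold change was -0.71, and that of a second probe set 0.01. Epdr1 was 2.08-fold higher, though its other probe sets had log2 fold changes of 0.02 and -0.27. Sparc, C1qtnf1 and Ccl2 were the other higher genes, and Bmp7 and Enho the other lower ones. Enho, with an adjusted p of 0.0495, was not called under 8 of 11 alternatives. Slit2, Angptl4, Fstl1 and Vegfa were called under all 11 alternatives. The call of Sparc was lost without knockdown replicate 2, and that of Epdr1 also without scramble replicate 1. C1qtnf1, Ccl2 and Enho lost theirs when 1 knockdown array (whichever it was) or scramble replicate 1 was left out, and Bmp7 when knockdown replicate 1 or 1 scramble array (whichever it was) was left out. The split of 7 and 4 became 8 and 2 with array medians made equal. The preadipocyte or fibroblast markers given above were higher in knockdown too, and their part in the higher genes of this list was not tested. Without knockdown replicate 2, 5 genes of the list were called, and 7 with probe sets of a gene averaged, when Epdr1, C1qtnf1, Bmp7 and Enho were not.

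Of 30 listed receptors and co-receptors of the members, 29 were measured, and limma called 4 higher and 0 lower, with a median of 0.04. That is 13.8% of the list, below the 18.5% of all genes called and near the 11.4% called higher. At an unadjusted p under 0.05, 9 were higher and 3 lower. Quantile normalization gave 4 and 1, and eBayes with a trend 9 and 1. The 4 called in the reported fit were Leprot (1.72-fold, adjusted p = 0.004), Egfr (1.60-fold), and the BMP receptors Acvr1 (1.58-fold) and Bmpr2 (1.39-fold). Leprot shares its first exons with the leptin receptor gene and affects receptor trafficking. The probe set of Leprot is of a type that can cross-react, and Leprot alone was called without knockdown replicate 2. The call of Bmpr2 was also lost without knockdown replicate 1. With probe sets averaged, Egfr and Acvr1 were not called (adjusted p = 0.0883 and 0.0841). On its brightest probe set the leptin receptor gene Lepr read 3.41 and 3.59 in scramble and 3.38 and 3.71 in knockdown. There the groups overlapped (log2 fold change 0.04, limma adjusted p = 0.865). A second probe set read 3.09 and 3.11 in scramble and 2.73 and 2.35 in knockdown, the last below background. Its log2 fold change was -0.56 (limma adjusted p = 0.0423 over all probe sets). The remaining Lepr probe sets were below background on every array, with log2 fold changes of -0.19 and -0.14. Adipor1 and Adipor2 had log2 fold changes of -0.27 and 0.23 (adjusted p = 0.106 and 0.177). Klb, the beta-klotho co-receptor of Fgf21, had a log2 fold change of 0.16 (adjusted p = 0.301), and the receptor gene Fgfr1 had 0.37 (adjusted p = 0.0994). Other Fgfr1 probe sets had log2 fold changes of -0.26 and -0.17, the latter below background on every array. The probe sets reported for Fgfr1, Adipor1 and Adipor2 are also of a type that can cross-react.

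Adiponectin is folded and hydroxylated in the endoplasmic reticulum before release. Of 12 genes listed for this, 12 were measured, 2 were higher and 1 lower, with a median of 0.05. That is 25% called, near the 18.5% of all genes. In eBayes with a trend and with averaged probe sets, 4 were higher and 1 lower. Ero1a and Hspa5 were not called on their brightest probe sets (log2 fold changes 0.35 and 0.34, limma adjusted p = 0.0988 and 0.0607). Other probe sets of Ero1a had 0.55 and 0.80 (limma adjusted p = 0.0487 and 0.0223 over all probe sets). Another of Hspa5 had 0.45 (0.0378 likewise). Plod2, a lysyl hydroxylase better known from collagen, read 4.62 and 4.43 in scramble and 6.55 and 6.73 in knockdown, 4.33-fold higher (adjusted p = 0.000328), whereas a second probe set differed by 0.47 log2 units. The disulfide isomerase gene P4hb was 1.75-fold higher (adjusted p = 0.00351). Gstk1, whose product promotes adiponectin multimers, was 1.37-fold lower (adjusted p = 0.0305), a call that was lost without any 1 of the 4 arrays.

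Cfd encodes adipsin, the protease that activates factor B, and Cfb encodes that factor. Cfb read 4.35 and 4.34 in scramble and 5.95 and 5.96 in knockdown, 3.06-fold higher (adjusted p = 0.000338). Of 16 genes listed for the alternative complement pathway, 12 were measured, 3 were higher and 1 lower (33.3% called, against 18.5% of all genes), with a median of -0.14. Beside Cfb, the lectin pathway protease gene Masp1 was 2.44-fold and the clusterin gene Clu 2.14-fold higher. Both values are from probe sets of a cross-reacting type, which may pick up other transcripts too. Further Clu probe sets had log2 fold changes of 1.24 and 1.18, the latter from a probe set not of that type. The complement inhibitor gene Cfi was lower (adjusted p = 0.0231). Masp1 had 5 probe sets. Another of the cross-reacting type read 3.47 and 3.24 in scramble and 4.36 and 4.40 in knockdown, a log2 fold change of 1.02. The remaining 3 read 2.69 or less on every array, near or below the background of 2.55. Their log2 fold changes were 0.09, -0.10 and -0.09. Averaging all 5 took the log2 fold change of Masp1 from 1.29 to 0.44. Cfi read 2.96 and 2.98 in scramble and 2.56 and 2.30 in knockdown, above background on 1 of 2 knockdown arrays, so its fold change is not given; its call was lost without knockdown or scramble replicate 2.

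Nampt makes the nicotinamide mononucleotide from which cells regenerate NAD. Of 26 listed genes of NAD salvage and use, 19 were measured, 3 were higher and 3 lower (31.6% called, against 18.5% of all genes), with a median of 0.01 and a split of 1 and 3 after quantile normalization. Nmnat3, a mitochondrial enzyme that finishes NAD, read 3.92 and 4.29 in scramble and 3.13 and 3.14 in knockdown, 1.96-fold lower (adjusted p = 0.00533), while its other probe set was at background on every array. Sirt3, a mitochondrial deacetylase that uses NAD, was 1.47-fold lower and the NAD kinase gene Nadk 1.34-fold lower. Nmnat1, the nuclear counterpart, was 1.41-fold higher, Nnmt, which methylates nicotinamide, 1.40-fold, and the transhydrogenase gene Nnt 1.53-fold. A dimmer probe set of Nnt read 2.77 and 2.73 in scramble and 4.62 and 4.55 in knockdown, a log2 difference of 1.83 against 0.61 on the brighter one. Without knockdown replicate 1 or 2, 1 gene of the list was called, and without scramble replicate 2, 3 were. Nmnat3 was called under all 11 alternatives, and the other 5 lost their calls when 1 knockdown array, whichever it was, was left out.

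Retinol is carried by Rbp4 bound to transthyretin (Ttr) and is converted to retinoic acid inside cells. Of 27 listed genes 25 were measured, 4 were higher and 2 lower (24% called, near the 18.5% of all genes), with a median of -0.03 and a split of 3 and 3 after quantile normalization. Rdh11, a retinal reductase, read 4.45 and 4.28 in scramble and 5.81 and 6.08 in knockdown, 2.99-fold higher (adjusted p = 0.000834), with a log2 difference of 1.58 against 0.65 on a dimmer probe set. The retinaldehyde dehydrogenase genes Aldh1a1 and Aldh1a7 were 2.16-fold and 1.41-fold higher (adjusted p = 0.00457 and 0.02), and Dhrs3 was 1.38-fold higher. The calls of Aldh1a7 and Dhrs3 were lost when 1 knockdown array, whichever it was, or scramble replicate 2 was left out. The alcohol dehydrogenase gene Adh1 was 1.63-fold lower (adjusted p = 0.00456). Ttr, which is also a hepatocyte marker, read 3.79 and 3.50 in scramble and 2.69 and 2.40 in knockdown, above background on 1 of 2 knockdown arrays, and was lower (adjusted p = 0.004). Its level moved with the other hepatocyte markers given above, whose part was not tested.

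**Figure D4:**
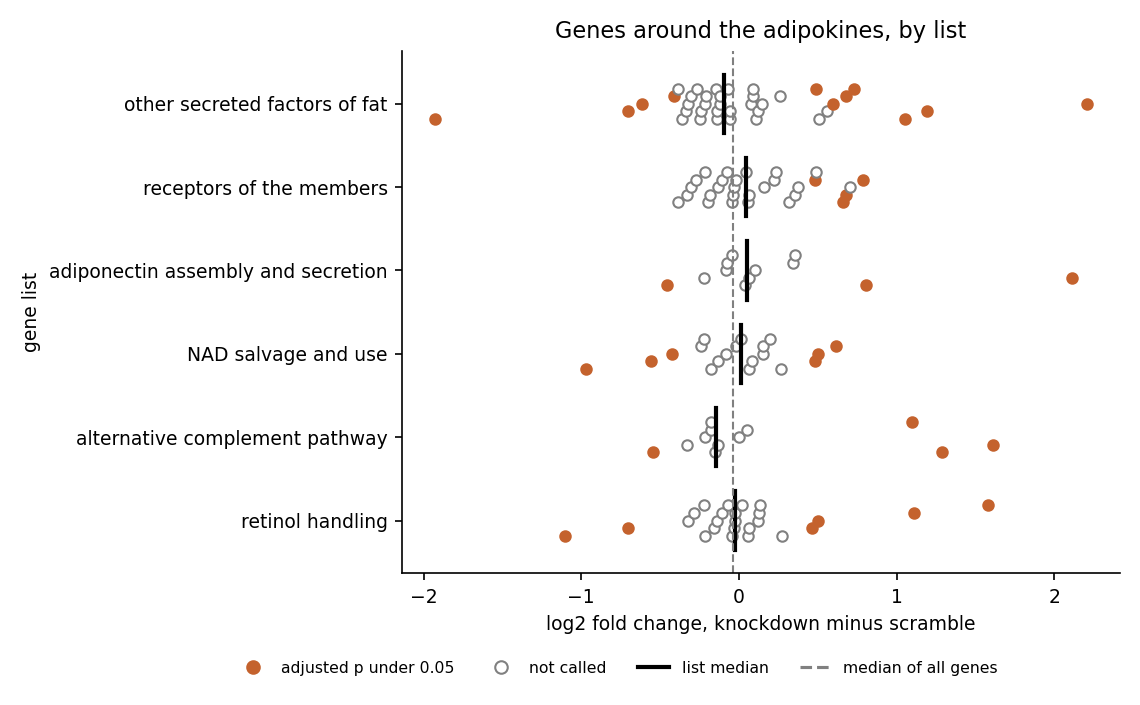
Log2 fold change (x axis, knockdown minus scramble) of each measured gene of the 6 lists around the adipokines (rows, spread vertically for visibility), in orange where the adjusted p is under 0.05, with a black bar at each list's median and a dashed line at the median of all genes. List medians lie between -0.14 and 0.05, and the called genes lie on both sides in every list except the receptors, where all 4 are higher.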

How the data were processed

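RNA of the 4 samples was hybridised to Affymetrix PM array strips for mouse, from 250 ng of total RNA with a 3' kit per the labels' protocols. The values are log2 expression values as deposited by the authors, 1 per probe set and array; per the submitters' processing notes the tools were affy, RMA and limma, with no version or role, and how the values were normalized is not given here. Of 45037 non-control probe sets, 28898 carry exactly 1 symbol. The brightest of these on average stood for its gene.

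All 45037 probe sets were fitted with limma 3.58.1 (R 4.3.3; lmFit, then eBayes) with the group and no covariate, and the two-sided p-values were adjusted by Benjamini-Hochberg over 17097 genes, and called under 0.05. The 4 arrays leave 2 residual degrees of freedom, which limits the precision. The fit was also run on simulated data, and the outcome is not reported here. Plots were drawn with matplotlib 3.10.9.

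The members and gene lists were chosen with earlier results of these data known. Named are all measured members, up to 6 called genes of each list with the largest change whose groups do not overlap, and the genes behind counts of 5 or fewer. Receptors named without a call, Ero1a, Hspa5, C1qtnf1, Sparc, Ccl2 and the marker genes singled out (Ucp1, Dio2, Alb) fall outside this rule. They were chosen after their values were seen. Alternatives were 2 other scalings, a filter on dim genes, a trended and a robust eBayes, averaged probe sets, separate probe sets, a replicate block, each array left out in turn, and another background level. No detection calls or scanner files were used here.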

Additional observations from a re-analysis of the deposited data

How the results depend on the processing

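With 2 arrays in each group there were 2 residual degrees of freedom, and several members were close to background. Small changes were called under some settings and not under others. The number of called members, 2 in the reported fit, was 4 in eBayes with a trend (Lep, Retn, Rbp4 and Bmp8b), 1 with probe sets of a gene averaged, and 1 without any single array, when Lep remained. The cause was not tested, except that leaving out an array also leaves fewer samples. Called genes of the 6 further lists numbered 34, between 16 (without knockdown replicate 2) and 32 with 1 array left out, and 54 with every probe set on its own, where 242 probe sets were tested in place of 130 genes. Over all genes the count of 3169 lay between 1050 and 2841 with 1 array left out (1050 and 1232 without knockdown replicates 2 and 1), and was 6356 with every probe set on its own. The log2 fold change of Nrg4 lay between -0.21 and 0.0090 with 1 array left out, and that of Enho turned to 0.081 with its probe sets averaged. Of the other settings of the called list genes, 310 kept direction and call and 62 lost the call. With the replicate number as a block 2 members, 35 list genes and 3179 genes were called; same-numbered samples share only a number, with deviations that correlated at 0.036. The level of the antigenomic controls' 95th percentile, 2.38, left 0 members with both groups at background, as did 2.55. Bmp8b has no value with the dimmest 40 percent of genes left out. Under that filter 3311 of 10258 genes were called, and 38 of 83 genes of the 6 further lists. The 18.5% given beside the lists covers all 17097 genes, of which 4210 had both groups at background.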
